A study of Rattus norvegicus and Bos taurus with 12 samples.

Results

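Ion channel and sodium pump genes were followed in 2 RNA-sequencing comparisons, adult rat ventricular myocytes (ARVM) kept in conditioned media from fibroblasts of calves with pulmonary hypertension (PH-CM) and the cardiac fibroblasts (Cfib) of such calves themselves. Members were all rows of the 2 tables whose gene symbol begins as the names of potassium (Kcn), sodium (Scn), voltage-gated calcium (Cacn), pacemaker (Hcn), TRP, chloride (Clcn, Clic, Ano), IP3 receptor (Itpr) and Piezo channel genes do, or as those of the Na/K pump and its FXYD regulators. This gave 73 of 7052 rat genes and 19 of 2115 bovine genes, in all 82 symbols of which 10 were in both tables, and 1 matching rat symbol was set aside. The rule reads symbols alone, but both tables hold only genes that were kept for a difference between the groups.

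The 6 rat libraries came from Sprague Dawley ventricular myocytes, 3 of them freshly isolated (con4, con5 and con6) and 3 kept in PH-CM for 7 days (ha2, ha209 and ha211). Per the methods, hearts of healthy adult rats were digested with collagenase on a perfusion system and the cells were filtered, with no sort described. The treatment labels name serum of cows, from low altitude for the control and from high altitude for the treated ARVM, whereas the treatment protocol names the conditioned media and the paper's results call the controls untreated. On the latter reading, which is used here, time in culture and PH-CM cannot be told apart. The paper's alignment methods call the rat cells NRVMs, while the labels give adult myocytes. The 6 bovine libraries came from right ventricular Cfib, 3 of control calves at ambient altitude (CO Cfib 1 to 3) and 3 of calves exposed as neonates to reduced atmospheric pressure, which gives pulmonary hypertension (PH Cfib 1 to 3). By the methods, these were cultured cells, grown with serum under standard conditions and used at low passage. Cells were harvested after a time in serum-free medium, from which the conditioned media were collected. Per the paper, the Cfib libraries of a group came from separate animals, which the labels do not name. For ARVM neither says whether libraries came from separate rats or cultures, so p-values there measure the spread between these libraries, which may be technical.

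Working cardiomyocytes keep a steep sodium and potassium gradient with the Na/K pump, whose catalytic α subunit needs a β subunit and is tuned by a small FXYD protein. Sodium channels start the action potential, calcium channels carry the entry that triggers contraction, and potassium channels return the membrane to rest, many of them only together with auxiliary subunits that set how many channels reach the surface and how they open. Fibroblasts lack the action potential but use potassium channels, TRP channels and IP3 receptors to set their membrane potential and calcium signals.

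ARVM values are reads divided by a size factor of each library, given here as normalized reads, and reads of listed genes ranged from 12122463 to 18842171 per library. The authors kept only genes that differed between the groups, so 97.6% of all 7052 genes were called by limma (adjusted p under 0.05) and in 100% the libraries of the groups did not overlap. A gene outside the tables was therefore not analysed here, and its absence says nothing of its level. Of the markers of other cells, all 9 fibroblast genes rose in PH-CM ARVM (summed 1700 to 2252 normalized reads in freshly isolated ARVM against 95789 to 141875), as did 5 of 5 analysed macrophage genes (150 to 199 against 5986 to 8957) and 3 of 3 cycling genes. Of 8 analysed ventricular myocyte markers 7 fell (987205 to 1020527 against 137808 to 167342), 6 of 6 endothelial markers fell (7193 to 9010 against 2625 to 3114), of 6 smooth muscle or pericyte markers 4 rose and 2 fell, and both red cell genes were at 0 in all PH-CM libraries. The part of these cells in the results was not tested, and in bulk RNA fewer cells of a type and less RNA per cell cannot be told apart.

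In PH-CM ARVM, members with many reads in freshly isolated ARVM mostly fell, among them the pump β subunit Atp1b1, the pump regulator Fxyd1 and the potassium channel subunit Kcnip2. Most members with few reads in freshly isolated ARVM rose, and those with none there could only rise. Of 73 members 72 were called (97.6% of all genes), 44 of them higher in PH-CM ARVM (53.9%) and 28 lower (43.7%). With an absolute log2 fold change of at least 1, 55 were called (48.3%). The median log2 fold change was 1.10 over the members and 0.37 over all genes, and the median absolute value was 2.08 against 0.96. This median turned on genes with few reads, being 0.60 against 0.36 with a pseudocount of 10 and -0.17 against 0.21 with a minimum mean of 50. Values of these fold changes are differences of log2(normalized reads + 1). A single member, Scn7a, was not called (adjusted p = 0.064).

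**Figure D1:**
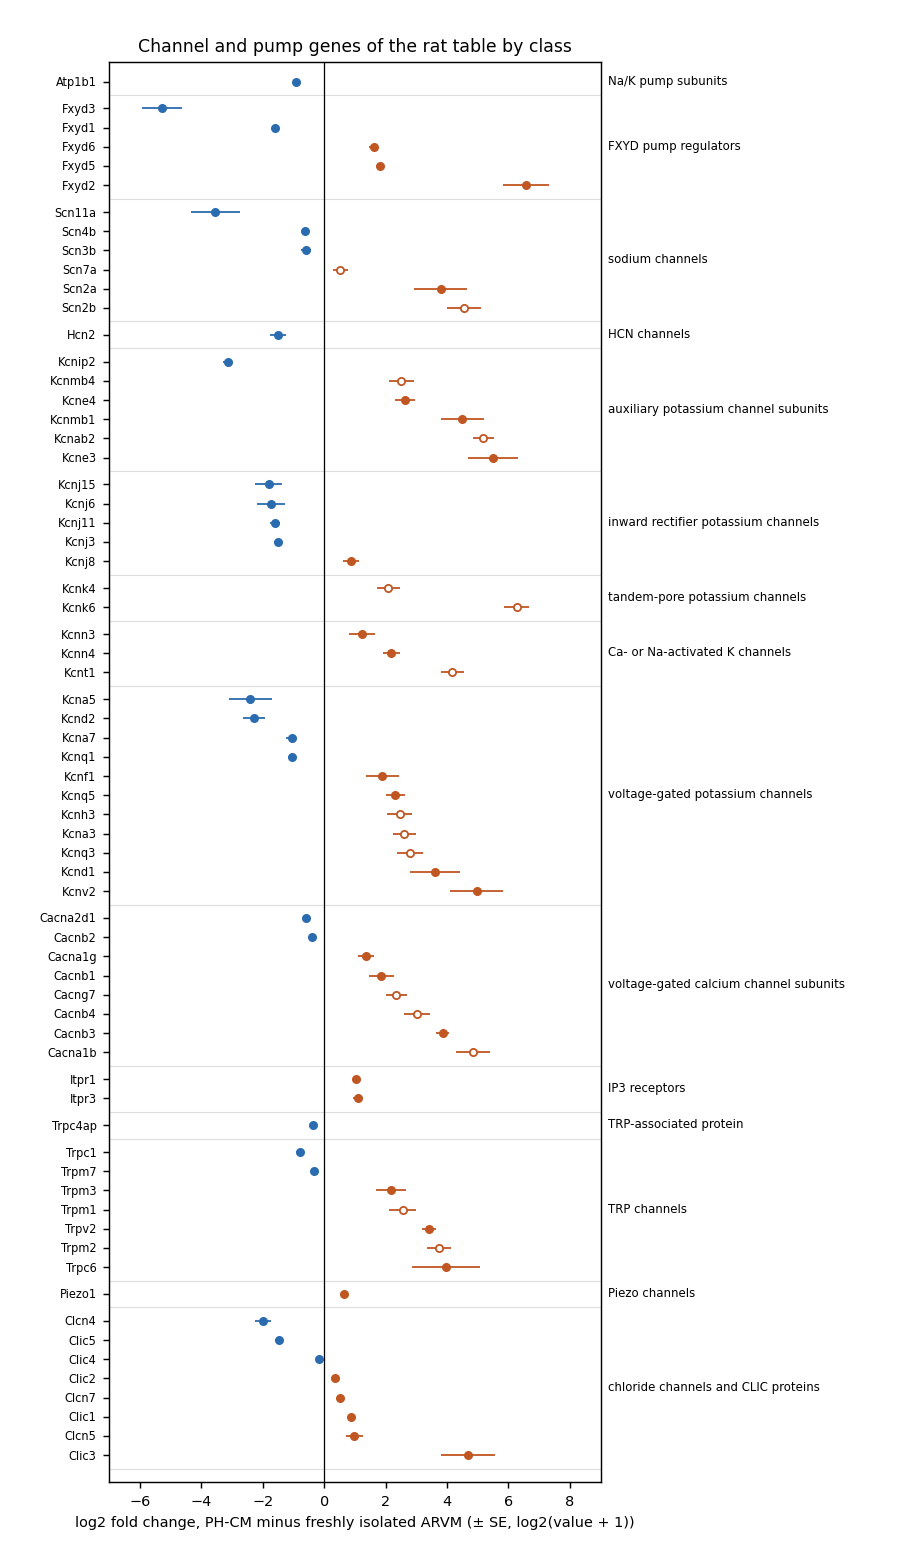
Log2 fold change of 67 members in PH-CM against freshly isolated ARVM, by class, with bars for the SE of the limma fit; the vertical line is no difference, orange is higher and blue lower, and open circles are Scn7a, which was not called, and 14 genes with no read in freshly isolated ARVM, whose fitted values are no bound. Atp1b1 and Hcn2 lie left of the line, and tandem-pore and calcium- or sodium-activated potassium channels and IP3 receptors lie right of it.

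Direction went with the level in freshly isolated ARVM, which itself enters the difference. Of the 12 members with a mean of 1000 or more normalized reads there, 11 were lower in PH-CM ARVM and the other was Clic1 (8.33% higher, against 25.9% of all genes at that level). Between 100 and 1000 normalized reads 8 of 20 members were higher (40%, against 54.8%), and between 10 and 100 it was 11 of 16 (68.8%, against 84.1%). All 9 members above 0 and under 10 and all 16 without a read were higher, where the shares of all genes were 94.4% and 100%. For genes without a read the direction was fixed in advance, as a listed gene at 0 there can only be higher. Summed over members, the share of the listed signal fell from between 0.367% and 0.386% per library to between 0.290% and 0.299%.

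Atp1b1, the β1 subunit that carries the pump to the surface, had 9658, 9304 and 9884 normalized reads in freshly isolated ARVM and 5626, 5247 and 4529 in PH-CM ARVM. The groups did not overlap, as in 100% of all 7052 genes. Atp1b1 fell by 0.91 ± 0.08 (SE, n = 3 per group) on the log2 scale (adjusted p = 2.95e-05, limma). In GRCr8, 34 of the 73 members overlap another gene and 14 overlap a coding gene, among them Atp1b1 (Nme7), and whether the counting used strand is not given in the sources used here.

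Among the 5 FXYD genes, 3 rose and 2 fell. Fxyd1, phospholemman, the pump regulator through which adrenergic signals act on the myocyte pump, had 11219, 11338 and 10923 normalized reads in freshly isolated ARVM and 4159, 3278 and 3576 in PH-CM ARVM (log2 fold change -1.61 ± 0.09, adjusted p = 1.83e-06). Fxyd5, dysadherin, which also modulates cell adhesion, went the other way, with 241, 223 and 213 against 793, 682 and 944 (log2 fold change 1.82). Fxyd6 had 228, 206 and 191 against 644, 541 and 746 (log2 fold change 1.61). Of these 3, Fxyd1 was lower and Fxyd5 and Fxyd6 were higher in every PH-CM library, and in 100% of all genes the groups did not overlap. Fxyd2, the pump γ subunit best known from kidney, had 0, 6.43 and 0 normalized reads against 201, 161 and 192 (log2 fold change 6.57, and up to 7.53 without freshly isolated ARVM con5, its only freshly isolated library with reads). Fxyd3 had 103, 125 and 111 against 0, 6.04 and 2.54 (log2 fold change -5.28, from -5.92 without PH-CM ARVM ha209 to -4.51 without PH-CM ARVM ha2). Its gene overlaps Lgi4 in the rat annotation GRCr8.

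To show the sequence around genes that moved furthest, the 250 bases upstream of the start are printed for the 3 largest falls and 3 largest rises among members with an entry in the RefSeq promoter table (GRCr8, 46 of 73 matched) and 500 or more normalized reads on average in whichever group was higher, chosen after the values were seen. Reads had been aligned to RN6, so these positions belong to GRCr8 alone. Sequences run 5′ to 3′ on the gene's strand, and capitals mark GGGCGG, a GC box, or CCGCCC, the same letters on the other strand. Kcnip2 (chr1:254613899-254614148, minus strand), Fxyd1 (chr1:95418581-95418830, minus strand) and Clic5 (chr9:24310965-24311214, minus strand) fell. Cacnb3 (chr7:131666301-131666550, plus strand), Fxyd5 (chr1:95404723-95404972, minus strand) and Fxyd6 (chr8:54575575-54575824, plus strand) rose.
Kcnip2: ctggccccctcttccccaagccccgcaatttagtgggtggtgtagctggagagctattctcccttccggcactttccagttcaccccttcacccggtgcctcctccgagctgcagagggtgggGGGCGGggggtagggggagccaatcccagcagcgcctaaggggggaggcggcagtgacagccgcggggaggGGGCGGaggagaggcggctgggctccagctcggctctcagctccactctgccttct
Fxyd1: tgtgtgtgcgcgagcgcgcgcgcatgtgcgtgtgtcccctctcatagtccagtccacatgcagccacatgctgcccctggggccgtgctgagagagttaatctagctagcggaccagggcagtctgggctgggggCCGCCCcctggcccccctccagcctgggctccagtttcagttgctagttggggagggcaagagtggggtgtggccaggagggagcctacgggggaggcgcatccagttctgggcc
Clic5: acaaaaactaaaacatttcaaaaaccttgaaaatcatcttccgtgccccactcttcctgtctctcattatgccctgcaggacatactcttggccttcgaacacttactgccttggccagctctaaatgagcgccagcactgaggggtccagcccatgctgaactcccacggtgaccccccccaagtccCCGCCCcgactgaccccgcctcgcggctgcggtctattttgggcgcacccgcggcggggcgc
Cacnb3: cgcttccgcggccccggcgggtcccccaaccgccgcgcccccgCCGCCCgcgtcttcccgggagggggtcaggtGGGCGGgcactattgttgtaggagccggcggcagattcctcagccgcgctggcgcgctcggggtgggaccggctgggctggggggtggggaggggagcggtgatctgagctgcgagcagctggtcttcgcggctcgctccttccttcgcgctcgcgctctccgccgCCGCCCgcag
Fxyd5: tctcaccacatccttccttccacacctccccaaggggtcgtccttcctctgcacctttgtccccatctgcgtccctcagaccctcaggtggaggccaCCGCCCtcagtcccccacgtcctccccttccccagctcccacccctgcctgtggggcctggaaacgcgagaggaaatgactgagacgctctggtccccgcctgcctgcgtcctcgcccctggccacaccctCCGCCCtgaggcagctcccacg
Fxyd6: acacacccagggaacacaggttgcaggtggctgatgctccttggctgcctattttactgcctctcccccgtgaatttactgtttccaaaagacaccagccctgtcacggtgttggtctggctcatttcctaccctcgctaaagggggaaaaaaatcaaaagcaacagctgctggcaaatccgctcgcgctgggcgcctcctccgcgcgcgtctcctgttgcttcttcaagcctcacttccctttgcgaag
GGGCGG on either strand was in 10 of 16 windows of members that fell (62.5%) and in 16 of 30 of members that rose (53.3%), where 58.1% of windows of genes in the rat table and 30.5% of all 33469 windows held it. The E-box letters CANNTG, which can overlap a GC box at a single end base, were in 32 of 46 member windows (69.6%), 57% of windows of rat-table genes and 65.5% of all windows. CCAAT was in 8 of 46 member windows (17.4%), 34.9% of windows of rat-table genes and 34% of all windows. The MEF2 box was in 0 of 46 member windows, 1.8% of windows of rat-table genes and 2.96% of all, too rare for 46 windows to show a difference. The median GC content was 66% for members that fell, 59.8% for members that rose, 60% for genes of the rat table and 51.2% for all windows. Windows of both kinds thus held the GC box, 5 of the 6 printed here included, and only Fxyd6 lacked it. A match describes these letters and not a bound site.

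Sodium channel β subunits with many reads in freshly isolated ARVM fell, and Scn2b rose. Scn4b, a β subunit that shapes the resurgent sodium current, had 1451, 1387 and 1472 normalized reads in freshly isolated ARVM and 1022, 925 and 855 in PH-CM ARVM (log2 fold change -0.62 ± 0.08, adjusted p = 0.000194). Scn3b, another β subunit of the heart, had 647, 478 and 640.5 against 377, 447 and 339 (log2 fold change -0.60), and its call was lost under the unequal-variance test (adjusted p = 0.0552). Scn2b, a β subunit of brain and heart sodium channels, was without a read in freshly isolated ARVM but had 31.8, 38.0 and 9.31 normalized reads in PH-CM ARVM, at least 22.2-fold higher against a floor of 3 reads over the group, and its lowest PH-CM value was in ARVM ha211. Hcn2, a pacemaker channel opened by hyperpolarization and cyclic AMP, had 222, 292 and 452 normalized reads against 109, 116 and 99.0, and fell by 1.51 ± 0.26 on the log2 scale (adjusted p = 0.000983). Its freshly isolated values spread widely, with ARVM con6 the highest, and its call was lost under the unequal-variance test (adjusted p = 0.0891).

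Potassium channel genes were the largest set, with 29 members of which 19 rose and 10 fell. Among the falls were subunits of the myocyte's repolarizing currents. Kcnip2, the calcium-binding subunit that the fast transient outward current needs, had 8897, 8848 and 8802 normalized reads in freshly isolated ARVM and 1165, 1151 and 769 in PH-CM ARVM. It fell by 3.13 ± 0.15 on the log2 scale (adjusted p = 9.76e-07), with the lowest value in ARVM ha211 and groups far apart. Kcnd2, a pore of the same current, had 117, 159 and 188 against 47.6, 22.4 and 26.2 (log2 fold change -2.28, adjusted p = 0.000456), and overlaps 6 other genes in GRCr8, 1 of them coding. Kcnd1, another Kcnd gene that was chosen after its values were seen, rose instead. It was low in freshly isolated ARVM, with 0, 5.36 and 9.30 against 37.8, 44.9 and 66.0 (log2 fold change 3.61, from 2.61 without freshly isolated ARVM con4 to 4.29 without con6).

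Kcnq1, the pore of the slow delayed rectifier, had 461, 421 and 447 normalized reads against 237, 197 and 209.04 (log2 fold change -1.05). Kcna7 had 484, 362 and 410.1 against 185, 242 and 179 (log2 fold change -1.05). Kcna5, an ultrarapid delayed rectifier, was low throughout, at 20.6, 8.57 and 16.5 against 4.54, 3.45 and 0 (log2 fold change -2.40, and -1.63 without PH-CM ARVM ha211, its only library at 0).

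Of the 5 inward rectifiers, 4 fell and 1 rose. Kcnj11, the pore of the ATP-sensitive channel of the myocyte membrane, had 1187, 1570.3 and 1452 normalized reads against 484, 562 and 355 (log2 fold change -1.60 ± 0.18, adjusted p = 8.4e-05). Abcc9, the sulfonylurea receptor subunit that joins it, fell as well, from 2523, 2244 and 2364 to 836, 1109 and 846 (log2 fold change -1.36). Kcnj8, the pore of the ATP-sensitive channel of vascular smooth muscle and pericytes, rose, at 80.7, 122 and 115 against 163, 247 and 176 (log2 fold change 0.88 ± 0.25, adjusted p = 0.00994). The call of Kcnj8 was lost under the unequal-variance test (adjusted p = 0.0613). Kcnj3, which carries the acetylcholine-activated current of the heart, had 483, 485 and 585 against 182, 200.2 and 162 (log2 fold change -1.50), and Kcnj15 had 36.4, 50.3 and 64.0 against 13.6, 22.4 and 7.62 (log2 fold change -1.80). Kcnj2 and Kcnh2 were not analysed here in the rat.

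The potassium channel genes that rose were mostly low in freshly isolated ARVM. Kcnq5 had 23.7, 26.8 and 14.5 normalized reads against 105, 112 and 107 (log2 fold change 2.31), and Kcnn4, the intermediate calcium-activated channel of leukocytes and proliferating mesenchymal cells, had 19.0, 20.4 and 18.6 against 94.5, 72.5 and 113 (log2 fold change 2.19). Both were measured in every library and the groups lay far apart. The auxiliary subunit Kcne4 had 14.2, 27.8 and 16.5 against 114, 108 and 143 (log2 fold change 2.62). Kcne3, which keeps Kcnq1 channels open, had 9.50, 0 and 5.17 against 134, 226 and 194 (log2 fold change 5.50, from 4.49 without freshly isolated ARVM con5 to 6.19 without freshly isolated ARVM con4). Kcnmb1, the smooth muscle subunit of the large-conductance calcium-activated channel, had 6.33, 4.28 and 0 against 87.7, 64.7 and 76.2 (log2 fold change 4.50, and 3.62 without freshly isolated ARVM con6), and lies over Kcnip1 in GRCr8. Kcnv2, a silent subunit that modifies other channels and overlaps Pum3, had 0, 0 and 9.30 against 58.2, 65.6 and 77.9 (log2 fold change 4.96, and 6.08 without freshly isolated ARVM con6). For the last 3 the size of the rise thus turned on freshly isolated libraries with under 10 normalized reads, and its direction was the same in each.

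**Figure D2:**
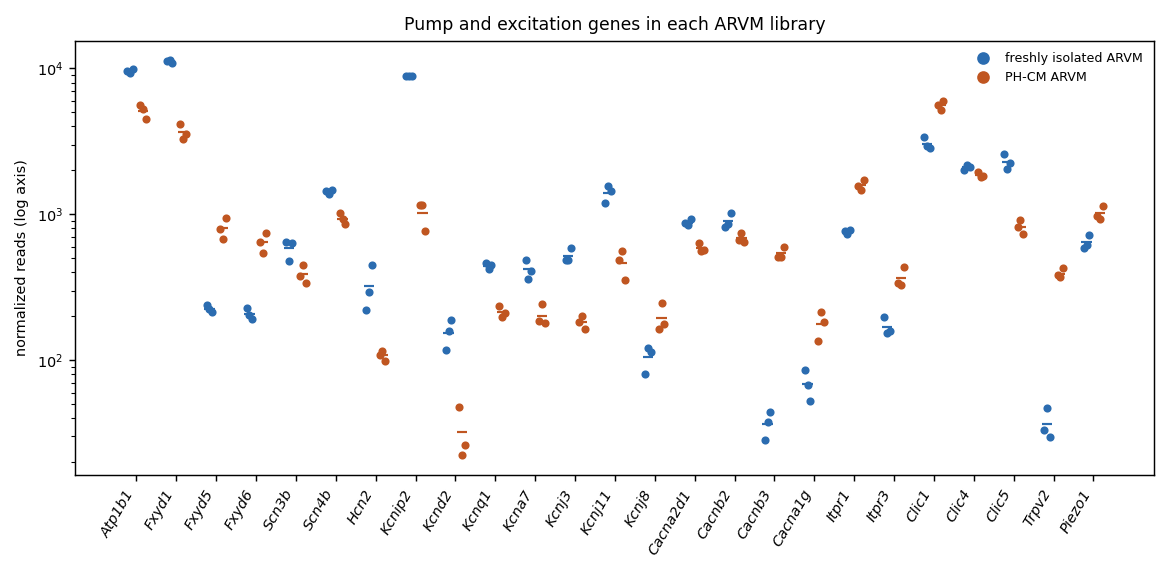
Normalized reads of 25 pump, channel and receptor genes in each ARVM library on a log axis; blue points are the 3 freshly isolated and orange points the 3 PH-CM libraries, and horizontal bars are group means. Kcnip2 shows the widest drop among the plotted genes, Clic4 lies close together in both groups, and Cacnb3 and Trpv2 rise the most.

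Voltage-gated calcium channel subunits divided between the β subunits. Cacnb2, the β subunit that prevails in the adult myocyte, had 818, 856 and 1024 normalized reads in freshly isolated ARVM and 666, 739 and 645 in PH-CM ARVM (log2 fold change -0.39 ± 0.11, adjusted p = 0.00852). Cacnb3, the β subunit of smooth muscle and neurons, had 28.5, 37.5 and 44.4 against 512, 512 and 595 (log2 fold change 3.86 ± 0.22, adjusted p = 2.24e-06), and Cacnb1, that of skeletal muscle, had 14.2, 39.6 and 33.1 against 116, 103 and 82.1 (log2 fold change 1.86). The fall of Cacnb2 was small beside the rise of Cacnb3, and its call was lost under the unequal-variance test (adjusted p = 0.0637). In GRCr8 Cacnb3 overlaps Tuba1c and Cacnb1 overlaps Rpl19. The accessory subunit Cacna2d1 had 869, 839 and 924 against 634, 558 and 571 (log2 fold change -0.58). Cacna1g, a T-type pore of fetal heart and pacemaker tissue, had 85.5, 67.5 and 52.7 against 135, 213 and 183 (log2 fold change 1.36 ± 0.27, adjusted p = 0.00187). In all, 6 of 8 members of this class rose and 2 fell, and 3 of the rises were among genes without a read in freshly isolated ARVM.

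Both analysed IP3 receptors, which release stored calcium, rose. Itpr1 had 763, 735 and 784 normalized reads in freshly isolated ARVM and 1562, 1469 and 1707 in PH-CM ARVM (log2 fold change 1.05 ± 0.08), and Itpr3 had 198, 154 and 158 against 339, 326 and 432 (log2 fold change 1.10 ± 0.18). Their log2 ratio, Itpr3 to Itpr1, differed by 0.05 between the groups (exact two-sided permutation p = 0.6, where the smallest that 3 against 3 libraries allow is 0.1), and the difference spanned -0.019 to 0.16 when libraries were dropped singly, being negative without freshly isolated ARVM con6 or without PH-CM ARVM ha211.

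Of the 7 TRP channels, 5 rose and 2 fell. Trpv2, a channel of stretched and phagocytic cells, had 33.2, 47.1 and 30.0 normalized reads in freshly isolated ARVM and 381, 369 and 428 in PH-CM ARVM (log2 fold change 3.41 ± 0.23, adjusted p = 5.65e-06). Its gene overlaps 4 others in GRCr8, 1 of them coding. Trpc6, a receptor-operated channel linked to fibroblast activation and hypertrophy, had 0, 8.57 and 33.1 against 108, 97.5 and 118 (log2 fold change 3.98 ± 1.11, adjusted p = 0.00923). The freshly isolated values of Trpc6 spread from 0 upward, and its log2 fold change was 2.59 without ARVM con4 and 5.13 without ARVM con6. Trpc1 fell, at 392, 313 and 363 against 205, 209.7 and 201 (log2 fold change -0.78), and so did Trpm7, a channel fused to a kinase, at 1449.6, 1183 and 1366 against 1038, 1074 and 1077 (log2 fold change -0.32, and no call under the unequal-variance test, adjusted p = 0.0755). Trpc4ap, which the symbol rule takes in although it encodes an adaptor and no channel, had 2127, 1896 and 1971 against 1601, 1418 and 1605 (log2 fold change -0.37) and overlaps Myh7b. Piezo1, a pore opened by membrane stretch, had 589, 615 and 721 against 969, 934 and 1142 (log2 fold change 0.66 ± 0.11, adjusted p = 0.000826) and overlaps Ctu2.

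Chloride channel and CLIC genes divided into 6 rises and 4 falls. CLIC proteins are chloride intracellular channel proteins that exist in soluble and membrane forms. Clic1 had 3404, 2917 and 2845 normalized reads in freshly isolated ARVM and 5635, 5204 and 5967 in PH-CM ARVM (log2 fold change 0.88 ± 0.08, adjusted p = 4e-05). Clic5 fell, at 2584, 2042 and 2241 against 814, 908 and 730.4 (log2 fold change -1.48 ± 0.11, adjusted p = 9.8e-06). Clic4 lay between them, at 2015, 2173 and 2122 against 1941, 1816 and 1833 (log2 fold change -0.17 ± 0.06, adjusted p = 0.0206), and it was no longer called without freshly isolated ARVM con5 or con6 or without PH-CM ARVM ha211, with adjusted p up to 0.078. The 3 abundant CLIC genes thus moved up, down and, for Clic4, by little. Clic3 had 0, 12.9 and 4.13 against 128, 62.1 and 146 (log2 fold change 4.68, from 3.66 without freshly isolated ARVM con4 to 5.55 without freshly isolated ARVM con5).

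Clcn4 and Clcn5 encode chloride-proton exchangers of endosomes. Clcn4 had 155, 180.0 and 119 normalized reads against 38.6, 43.1 and 29.6 (log2 fold change -1.99), and Clcn5 had 88.6, 64.3 and 64.0 against 187, 108 and 144 (log2 fold change 0.99), in the opposite direction.

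A set of 16 members had no read in any freshly isolated library. Their rise is given against a floor of 3 reads over the group, so each value is a lower bound. Kcnk6, a tandem-pore background potassium channel, had 89.2, 47.5 and 105 normalized reads in PH-CM ARVM (at least 68.0-fold higher) and Kcnab2, a β subunit of voltage-gated potassium channels, had 40.1, 31.1 and 35.5 (at least 30.0-fold higher), and both overlap another coding gene. Cacna1b, the N-type calcium channel of nerve terminals, had 37.8, 11.2 and 49.1 (at least 27.6-fold higher), with its lowest value in ARVM ha209. Kcnt1, a sodium-activated potassium channel, had 12.9, 19.8 and 19.5 (at least 14.7-fold higher), and Trpm2, a channel of leukocytes gated by ADP-ribose and oxidative stress, had 14.4, 15.5 and 8.46 (at least 10.8-fold higher). Scn2b is given above, and 8 more, Cacnb4, Kcnq3, Trpm1, Kcna3, Kcnmb4, Kcnh3, Cacng7 and Kcnk4, had bounds from at least 2.81-fold to at least 6.51-fold and no more than 12.1 normalized reads in any library. Of these 8, Kcnh3 overlaps 1 coding gene in GRCr8. Markers of Schwann cells and neurons, which use several of these genes, were not analysed here, and the macrophage markers given above rose in the same libraries, with no test of their part.

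**Figure D3:**
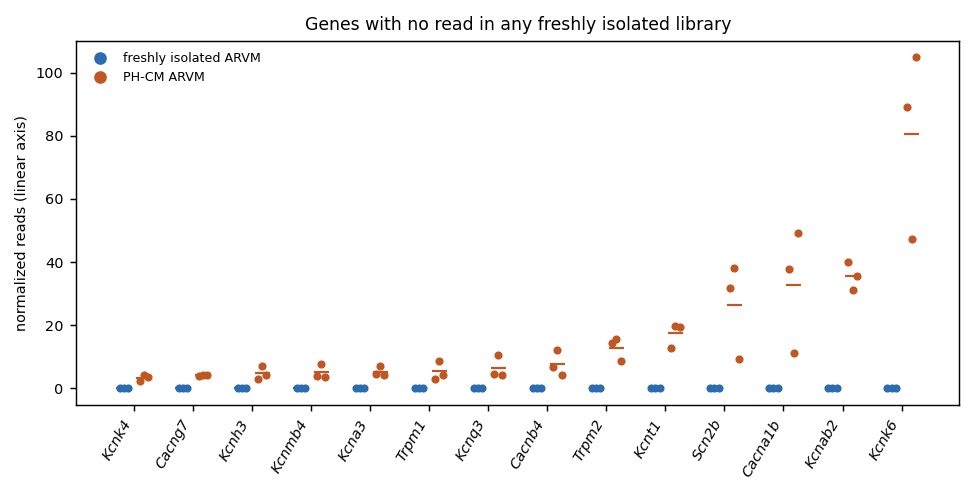
Normalized reads in each library, on a linear axis, of 14 members with no read in the 3 freshly isolated ARVM libraries; orange points are the PH-CM libraries, blue points lie at 0, and horizontal bars are group means. Kcnk6 reaches 105 normalized reads in ARVM ha211, and most of the others stay below 20.

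Genes whose products work with channels and pumps were taken from a list of 53, of which 33 were analysed in the rat. Of these 10 rose and 23 fell (median log2 fold change -0.70, against 0.37 over all genes), and 33 were called, where 97.6% of all genes were. Rrad, a small GTPase that restrains calcium channels, had 26953, 27452 and 27369 normalized reads in freshly isolated ARVM and 4778, 5863 and 4218 in PH-CM ARVM (log2 fold change -2.47), while Gem, a relative with the same action, had 34.8, 47.1 and 49.6 against 265, 177 and 278 (log2 fold change 2.41). Cav3, the caveolin of muscle, had 4765, 4968 and 4674 against 1078, 956 and 835 (log2 fold change -2.33). Modulators and anchors of channels fell in 12 of 15 cases, where 3165 of all 7052 genes fell.

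Atp2a2, the calcium pump of the sarcoplasmic reticulum, had 97275, 91497 and 93997 normalized reads against 15473, 14722 and 12444 (log2 fold change -2.73), and Slc8a1, the sodium-calcium exchanger that depends on the gradient the Na/K pump makes, had 7967, 7023 and 7055 against 4537, 4470.0 and 3885 (log2 fold change -0.77). Gja1, the connexin of ventricular gap junctions, rose, at 4855, 5030.1 and 5227 against 11235, 10192 and 11108 (log2 fold change 1.11). Orai2, a store-operated calcium channel subunit, had 15.8, 19.3 and 19.6 against 273, 267 and 319.9 (log2 fold change 3.90) and Orai1 had 674, 672 and 648 against 488, 431 and 493 (log2 fold change -0.50). Exchangers and other pumps thus fell in 8 of 10 cases, 2 of 3 connexins and 2 of 3 store-operated genes rose, and of 2 transcription factors of the conduction system 1 rose and 1 fell. Of all genes with 1000 or more normalized reads in freshly isolated ARVM, 1689 of 2279 fell, and partner genes were not compared by level.

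In Cfib the members were fewer, and most rose in PH Cfib. Values are a deposited signal scaled by gene length and library, of which the unit and depth are unknown. All 19 members were called by limma (97.5% of all genes), 16 higher in PH Cfib (58.2%) and 3 lower (39.4%), and 11 were called with an absolute log2 fold change of at least 1 (34%). The median log2 fold change was 0.93 over the members and 0.33 over all genes, on log2(signal + 1), which understates the change of genes with low signal. Members made up 0.155% to 0.171% of the listed signal in CO Cfib and 0.336% to 0.349% in PH Cfib. Of the fibroblast markers 3 were analysed and all 3 rose, while of 3 smooth muscle or pericyte markers 2 rose and 1 fell. The 1 analysed macrophage and the 1 analysed Schwann or neuron marker rose and the 1 cycling marker fell, and markers of ventricular myocytes, endothelium and red cells were not analysed here. The part of these in the results was not tested.

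The PH Cfib libraries lay closer together than the CO Cfib libraries, with a median coefficient of variation over members of 6.25% against 25.8% (5.01% against 13.7% over all genes). CO Cfib 3 was the lowest CO library for 10 of the 16 members higher in PH Cfib (62.5%, against 57.3% of all 1262 genes higher in PH Cfib). It was below 50% of the next CO value for KCNK6, ITPR3 and CACNA1G (18.8%, against 12.1%). When the PH libraries were averaged into a single value, the median log2 fold change was 0.93 over the members and 0.33 over all genes. Without CO Cfib 3, 16 members were called higher and 3 lower, as with it. Of all 2115 genes, 1224 were then called higher and 828 lower.

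The pump genes had the highest signal among the members. FXYD6 had a signal of 44.0, 59.0 and 69.3 in CO Cfib and 136, 129.6 and 125 in PH Cfib (log2 fold change 1.19 ± 0.16 SE, adjusted p = 0.000536, n = 3 per group, limma). FXYD1 had 23.1, 18.0 and 35.2 against 81.2, 78.5 and 78.7 (log2 fold change 1.66 ± 0.22, adjusted p = 0.000533). ATP1B1, the pump β1 subunit, had 39.1, 48.0 and 29.8 against 64.7, 74.7 and 74.0 (log2 fold change 0.87 ± 0.17, adjusted p = 0.00266). All 3 were higher in every PH library, and in 100% of all 2115 genes the groups did not overlap.

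Calcium channel subunits and calcium-permeable channels rose as well. CACNB3 had a signal of 20.1, 14.7 and 12.3 in CO Cfib and 33.8, 32.5 and 32.1 in PH Cfib (log2 fold change 1.05), and CACNB1 had 6.47, 5.07 and 5.46 against 11.1, 10.1 and 9.89 (log2 fold change 0.77). The T-type pore CACNA1G had 1.14, 1.09 and 0.382 against 3.11, 2.90 and 2.87 (log2 fold change 1.11). The β subunits were the higher and the pore stayed near a signal of 3 in PH Cfib. TRPC4, a receptor-operated channel, had 2.78, 3.01 and 1.78 against 9.84, 9.23 and 8.84 (log2 fold change 1.57 ± 0.15, adjusted p = 0.000135), and ITPR3 had 2.81, 3.09 and 0.797 against 5.67, 5.54 and 5.25 (log2 fold change 1.09). TRPV4, a channel of osmotic and mechanical stimuli, had 0.919, 0.596 and 0.403 against 1.24, 1.33 and 0.984 (log2 fold change 0.42, adjusted p = 0.0186). The TRPV4 call was lost without CO Cfib 2, without PH Cfib 1 or without PH Cfib 2 (adjusted p up to 0.0618), and after rescaling by the median of ratios (adjusted p = 0.0783).

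Of 8 potassium channel genes 5 rose and 3 fell. KCNK6 had a signal of 3.74, 3.93 and 0.771 in CO Cfib and 9.93, 11.9 and 9.19 in PH Cfib (log2 fold change 1.71 ± 0.39, adjusted p = 0.0057). KCNJ8 had 0.702, 0.818 and 0.965 against 4.75, 4.67 and 4.34 (log2 fold change 1.61 ± 0.09, adjusted p = 1.38e-05), and KCNJ2, the inward rectifier that holds the resting potential, had 1.57, 1.53 and 0.866 against 2.93, 2.80 and 2.93 (log2 fold change 0.76). KCNJ8 was tight in both groups, whereas KCNK6 rested on a CO group in which CO Cfib 3 was far below the other 2. The β subunit KCNAB1 had 4.89, 4.32 and 4.05 against 9.76, 9.20 and 8.92 (log2 fold change 0.93) and KCNMB4 had 0.812, 0.712 and 1.05 against 1.63, 1.31 and 1.31 (log2 fold change 0.38, adjusted p = 0.00963, and 0.0799 after rescaling by the median of ratios).

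The 3 falls were all of potassium channel genes with a low signal. KCNK17 had 1.69, 1.96 and 2.39 in CO Cfib and 0.146, 0.259 and 0.119 in PH Cfib (log2 fold change -1.35 ± 0.11, adjusted p = 6.28e-05). KCNK5, like KCNK17 a tandem-pore channel opened by alkaline pH, had 1.96, 1.76 and 1.59 against 0.123, 0.242 and 0.136 (log2 fold change -1.25 ± 0.08, adjusted p = 3.5e-05). KCNS3, a silent subunit that modifies delayed rectifiers, had 1.26, 1.17 and 0.731 against 0.077, 0.0507 and 0.104 (log2 fold change -0.92). All 3 were at or below a signal of 0.259 in every PH library. The tandem-pore genes thus moved both ways in Cfib, KCNK6 upward and the other two downward. Among chloride channels, CLCN2 had 1.05, 0.672 and 0.346 against 2.74, 2.28 and 2.09 (log2 fold change 1.01), and ANO5, of the anoctamin family, had 0.167, 0.0955 and 0.239 against 1.06, 0.882 and 1.32 (log2 fold change 0.84). Of the 53 partner genes 11 were analysed in Cfib, 7 of which rose and 4 fell (median log2 fold change 0.72, against 0.33 over all genes).

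**Figure D4:**
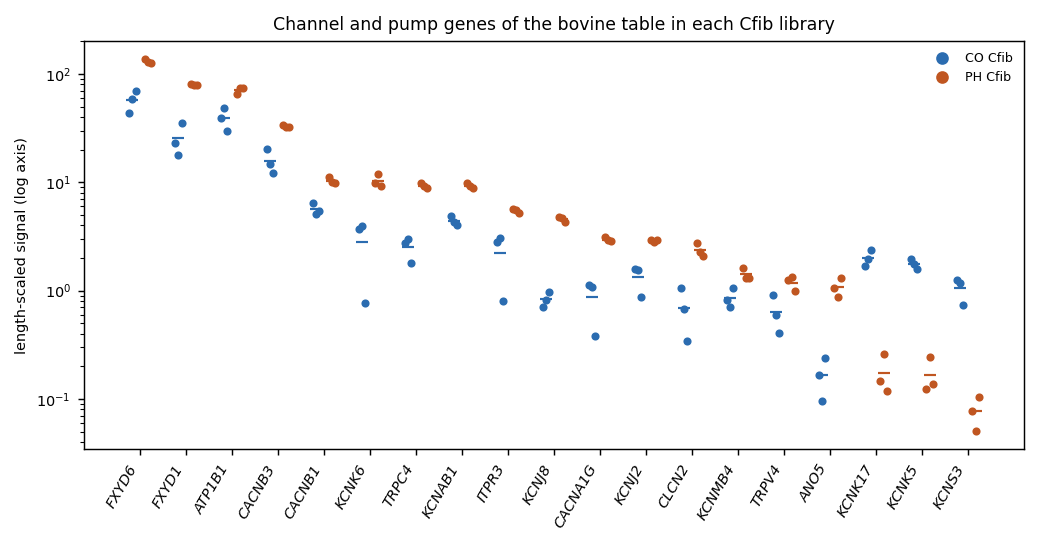
Signal of the 19 bovine members in each Cfib library on a log axis, ordered by the PH mean; blue points are CO and orange points PH libraries, and horizontal bars are group means. KCNK17, KCNK5 and KCNS3 lie at the right with PH below CO, and CO libraries spread more than PH libraries for most genes.

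The 10 genes in both tables share no libraries between the 2 experiments. Of these 8 moved the same way (80%), against 55.7% of the 1178 genes in both tables, a share that includes genes that fell in both. All 8 rose in both. They were Cacna1g, Cacnb1, Cacnb3, Fxyd6, Itpr3, Kcnj8, Kcnk6 and Kcnmb4. Log2 fold changes were 3.86 in ARVM and 1.05 in Cfib for Cacnb3, 1.61 and 1.19 for Fxyd6, and 1.10 and 1.09 for Itpr3. For Kcnj8 they were 0.88 and 1.61, for Cacna1g 1.36 and 1.11, and for Cacnb1 1.86 and 0.77. The added 1 weighs more on the low Cfib signal, so these sizes cannot be compared between the experiments. With a pseudocount of 0.1 the Cfib values were 1.46 for Itpr3, 2.34 for Kcnj8 and 1.78 for Cacna1g. In ARVM they were then 1.10, 0.88 and 1.37. The remaining genes of the 8, Kcnk6 and Kcnmb4, had no read in freshly isolated ARVM. Atp1b1 and Fxyd1 fell in PH-CM ARVM and rose in PH Cfib.

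**Figure D5:**
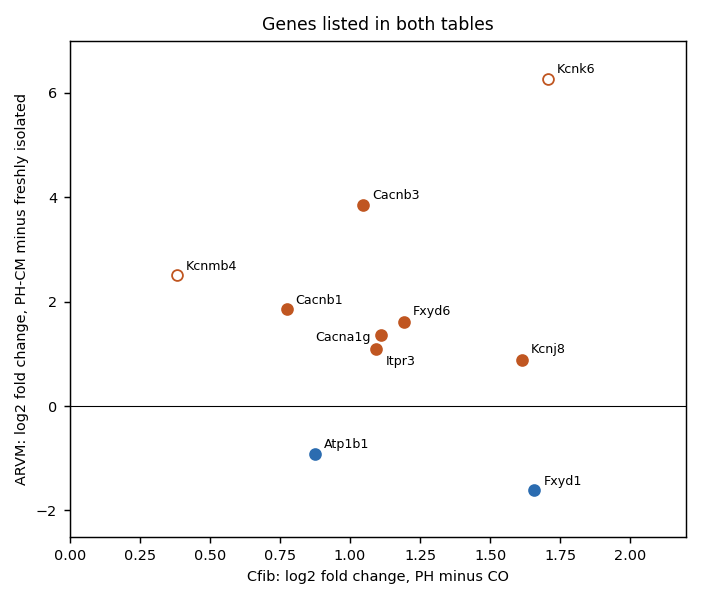
Log2 fold change in ARVM (vertical axis, PH-CM against freshly isolated) and in Cfib (horizontal axis, PH against CO) of the 10 genes in both tables; orange is the same direction, blue the opposite, and open circles are genes with no read in freshly isolated ARVM. The 8 orange genes lie above 0 on both axes and Atp1b1 and Fxyd1 lie below 0 in ARVM.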

How the data were processed

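RNA of 12 libraries was sequenced. The authors aligned rat reads to RN6 and bovine reads to BosTau8 with HISAT2 and StringTie, normalized counts with DESeq2, kept genes with an expression value above 1 in a condition and selected those with p under 0.05, so both tables hold selected genes and adjustment covers these alone. For ARVM, the deposited signal is each count over a size factor (0.632 to 1.32). They came out whole within 0.01 reads in 100% of cases, and edgeR called 6815 of 7052 genes on those reads. The deposited Cfib signal is scaled by length and library, its unit (FPKM, TPM or another) is not settled and its depth is unknown.

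Groups were taken from the labels. Values were compared as log2(value + 1) with limma (version 3.58.1, trended eBayes, under R 4.3.3), Benjamini-Hochberg adjusted over each table with a threshold of 0.05, and the log2 ratio of the IP3 receptors with exact permutation tests (scipy 1.17.1). Error terms with fold changes are SE and n is 3 libraries per group. Tested on simulated data at the ARVM design (7052 genes, 200 of them shifted by 2 on the log2 scale), limma found all 200 and made 14 further calls, and at the Cfib design (2115 genes) it found 200 and made 10 further calls. The shifted genes were drawn from those with a mean above 50 in ARVM or 5 in Cfib, and the noise was set rather than fitted. Recovery of genes with lower values or smaller shifts was not tested. In the real data 97.6% of ARVM and 97.5% of Cfib genes were called, far more than were shifted here. The further calls therefore give no rate of false calls for these data. Alternatives were pseudocounts of 0.1 and 10, a minimum mean (50 in ARVM, 5 in Cfib), median of ratios, no trend, a log2 fold change of at least 1, the unequal-variance test, each library left out, edgeR 4.0.16 and DESeq2 1.42.0 on recovered reads, a replicate block and averaged PH libraries. Libraries of equal number in Cfib correlated in their deviations at 0.258, 0.0312 and 0.259, so the numbers were not taken as pairs.

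The members, partner and marker lists and the genes named were chosen with earlier results of these data known. Named were all bovine members, up to 3 rises and 3 falls of each rat class with a mean of at least 50, a list of cardiac action potential and pump genes, genes in both tables and genes without a read in a group. The partner genes named were chosen after their values were seen. Some members enter the counts only and are not reported singly here. The tables pair no positions with genes, and names and overlaps of rat genes come from RefSeq GRCr8 (73 of 73 matched).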

Additional observations from a re-analysis of the deposited data

Results flagged for a closer look

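Atp1b1 and Fxyd1 were flagged because they fell in one experiment and rose in the other. Such opposite directions were common, at 522 of the 1178 genes in both tables and 2 of the 10 members. In 100% of genes of each experiment the groups did not overlap, so that trait does not set these 2 apart. The log2 fold change of Atp1b1 was -0.91 in PH-CM against freshly isolated ARVM and 0.87 in PH against CO Cfib. For Fxyd1 it was -1.61 in ARVM and 1.66 in Cfib. The difference between the experiments was not tested, since species, contrast and unit all differ.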

How the results depend on the processing

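Counts of called members depended most on filters. With a minimum mean of 50, 45 rat members remained for testing and 21 were called higher (44 without the filter) and 23 lower, so 48.9% of the tested members were higher in place of 61.6%. Of all genes 6121 remained, 3057 were called higher and 2919 lower, and 51.1% were higher in place of 55.1%. A required log2 fold change of at least 1 left 17 members called lower of 28, and 1127 of 3080 over all genes. In Cfib, 8 were called higher with a minimum mean of 5, 9 with a log2 fold change of at least 1 and 10 with the PH libraries averaged, of 16. With that minimum limma called 0 lower, as the 3 genes that fell were too low to be tested, and all 8 tested had an unadjusted p under 0.05. Leaving out each library gave 43 to 44 higher and 27 to 28 lower in ARVM and 15 to 16 higher and 3 lower in Cfib. The unequal-variance test called 54 rat members, and edgeR 72 and DESeq2 69. Besides the genes named with it above, the unequal-variance test lost Cacna1b, Cacnb4, Clcn5, Clic3, Kcna5, Kcnf1, Kcnh3, Kcnk6, Kcnmb4, Kcnq3, Scn2b, Trpm1 and Trpm3. For the genes named, 907 of 942 comparisons with an alternative in ARVM and 255 of 274 in Cfib kept direction and call, and the others lost the call without a change of direction. Median of ratios moved Cfib log2 fold changes by a median of -0.27, which took TRPV4 and KCNMB4 out of the calls and the share of all genes higher from 59.7% to 53.9%. The log2 difference of the Itpr3 to Itpr1 ratio, 0.05, reversed to -0.019 without freshly isolated ARVM con6 and to -0.018 without PH-CM ARVM ha211 and ranged to 0.16. With the replicate number as a block in Cfib, 16 members were called higher and 3 lower, as without it. Of all 2115 genes, 1191 were called higher and 792 lower with the block. No paired analysis was possible because the ARVM groups share no replicate numbers. Ratios per length were not run, as no transcript lengths were used here. The ratios on a log2 scale, and an edgeR fit keeping the size factors of the authors, were added after seeing the data. Low reads limit the genes with none in freshly isolated ARVM, and their floors cover counting error only. The SE values come from the spread between libraries.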

Other observations

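Rat members outside the rule for named genes also included neuronal channel genes, chosen here after their values were seen. Scn11a, a sodium channel of sensory neurons, had 47.5, 37.5 and 42.4 normalized reads in freshly isolated ARVM and 10.6, 0 and 3.39 in PH-CM ARVM (log2 fold change -3.55, adjusted p = 0.00359, limma, from -4.37 without PH-CM ARVM ha2 to -2.60 without PH-CM ARVM ha209). Scn2a, a sodium channel of brain, went the other way, with 0, 8.57 and 0 against 32.5, 36.2 and 19.5 (log2 fold change 3.79, from 3.25 without freshly isolated ARVM con4 or con6 to 4.88 without con5). Scn7a, an atypical sodium channel of glia and sensory neurons, had 52.2, 65.3 and 62.0 against 99.1, 88.9 and 72.8 (log2 fold change 0.53 ± 0.24, adjusted p = 0.064), with no call.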
